A study of Mus musculus with 6 samples.

Results

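Prostaglandins are lipid signals that cells make on demand from arachidonic acid. Cyclooxygenases turn arachidonic acid into prostaglandin H2, terminal synthases turn that into prostaglandin E2, a dehydrogenase inactivates prostaglandin E2 inside the cell, and carriers move it across the membrane to and from the G protein-coupled receptors that sense it. In the colon, prostaglandin E2 takes part in the repair of the injured epithelium and in the growth of tumors, and inducible cyclooxygenase is often raised, and the dehydrogenase often low, in colorectal tumors.

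The mRNA of 10 genes of this pathway was examined by RNA-seq of the colon epithelium. They were chosen by name from the 52550 genes listed, and comprise the cyclooxygenases Ptgs1 and Ptgs2, the prostaglandin E synthases Ptges, Ptges2 and Ptges3, the dehydrogenase Hpgd, the carriers Slco2a1 and Abcc4, and the receptors Ptger2 and Ptger4. All 10 were found. The question was how their levels differed between genotypes, and how synthesis stood against degradation.

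There were 3 Zfp90fl/fl mice, which carry the floxed alleles without Cre, and 3 Zfp90ΔIEC mice, in which Cre driven by the Villin promoter deletes part of Zfp90, a zinc finger protein gene, in intestinal epithelial cells. All were male C57BL/6 mice. The labels give an age of 6 to 8 weeks, and the methods of the study give 8 weeks as the age at the first treatment. All received azoxymethane (AOM, a carcinogen) at 10 mg/kg by intraperitoneal injection. Starting 5 days later, dextran sulfate sodium (DSS, which injures the colon) was given in the drinking water for 7 days, at 2% by the labels (the methods of the study state another percentage), with 14 days of plain water after it, over 3 cycles, and the mice were killed on day 80. No sample without AOM-DSS was included, so that the values compare genotypes after treatment and not treatment with its absence. The genotypes were housed apart after weaning, and cage and genotype cannot be told apart.

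Levels are given in FPKM, the fragments counted for a gene after scaling to its transcript length and to the depth of the sample. Zfp90 had 0.490 to 0.630 FPKM in the Zfp90fl/fl samples and 0.0846 to 0.195 FPKM in the Zfp90ΔIEC samples. The genotype field of 2 Zfp90ΔIEC samples names another gene number, and their titles place them in this group. The 8 markers of colon epithelium, such as Epcam, Vil1 and Krt8, summed to between 5803 and 6626 FPKM in the 6 samples, and the genotypes overlapped. The depth was estimated at 26.1 to 28.7 M fragments per sample.

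None of the 10 genes passed the threshold, which was an adjusted p under 0.05 from limma on log2(FPKM + 1) with Benjamini-Hochberg adjustment. At 1 FPKM or more in at least 3 samples, 6 of the 10 were tested among 11564 genes, of which 0.199% were called. Among those 6, 2 (Hpgd and Slco2a1) had an unadjusted p under 0.05, against 14.6% of all genes tested. The other 4 (Ptgs1, Ptgs2, Ptges and Ptger2) lay below that level and take their statistics from the same fit without the filter, in which 0.0539% of 27805 genes were called and 9.96% had an unadjusted p under 0.05. There, 4 of the 10 had such a p, with Ptgs1 and Ptgs2 added. The median log2 fold change of the 6 genes tested was 0.04, beside -0.02 over all genes tested.

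In 4 of the 10 genes the genotypes did not overlap. Hpgd and Slco2a1 were higher in every Zfp90ΔIEC sample than in any Zfp90fl/fl sample, and Ptgs1 and Ptgs2 were lower in every one. Over genes with a value above 0 in at least 1 sample, 14.9% had genotypes that did not overlap, and over the genes tested 21.3%, beside 2 of the 6 prostaglandin genes tested.

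The levels of the 10 genes spanned from Hpgd, with a mean of 105 FPKM over the 6 samples, to Ptger2, with a mean of 0.0206 FPKM. Hpgd lay above 98.6% of the expressed genes and Ptges3 (43.3 FPKM) above 96.4%. Ptger4 (9.72 FPKM), Ptges2 (5.28 FPKM), Slco2a1 (2.61 FPKM) and Abcc4 (2.52 FPKM) followed. Ptges (0.277 FPKM), Ptgs2 (0.178 FPKM), Ptgs1 (0.0825 FPKM) and Ptger2 came last. The ranges over samples overlapped between Slco2a1 and Abcc4 and between each neighbouring pair of the last 4 genes, so their order within those groups does not stand out from the spread. FPKM is per length of transcript, which allows these levels to be set side by side.

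**Figure D1:**
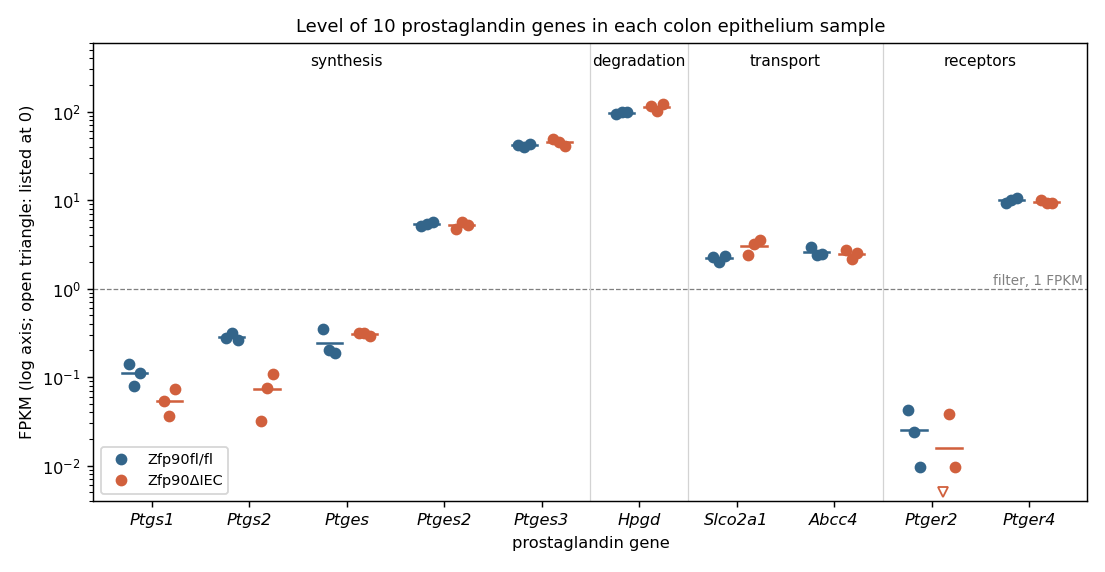
FPKM of the 10 prostaglandin genes in each sample (log axis), by role, with 3 Zfp90fl/fl and 3 Zfp90ΔIEC samples as points, the group mean as a bar, and an open triangle where a sample is listed at 0. Hpgd sits near 105 FPKM and the 2 cyclooxygenases under 0.32 FPKM, where the Zfp90ΔIEC points all lie under the Zfp90fl/fl points.

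Cyclooxygenase 2, encoded by Ptgs2 (ENSMUSG00000032487; chr1:150100031-150108227, + strand, GRCm38), is the inducible enzyme that inflammation and growth signals switch on. It was measured at 0.275, 0.315 and 0.262 FPKM in Zfp90fl/fl replicates 1 to 3 and at 0.0320, 0.0762 and 0.109 FPKM in Zfp90ΔIEC replicates 1 to 3. The highest Zfp90ΔIEC sample was below the lowest Zfp90fl/fl sample. The mean was 0.284 ± 0.0273 FPKM (SD, n = 3) in Zfp90fl/fl and 0.0725 ± 0.0388 FPKM (SD, n = 3) in Zfp90ΔIEC mice, 3.92-fold lower. On the log2(FPKM + 1) scale, which understates the difference of low genes, the log2 fold change was -0.26 (SE 0.0348, 95% interval -0.35 to -0.17), with an unadjusted p of 0.000362 and an adjusted p of 0.140 by limma without the filter.

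These Ptgs2 values rest on an estimated 31.9, 39.9 and 32.9 fragments in the Zfp90fl/fl samples and 3.9, 9.7 and 13.8 in the Zfp90ΔIEC samples. A fit of limma-voom to estimated fragments, in which 0.331% of 14789 genes were called and 14.7% had an unadjusted p under 0.05, gave Ptgs2 a log2 fold change of -2.06 (SE 0.386, 95% interval -2.96 to -1.16) and an adjusted p of 0.0733. In that fit 3 of the 8 prostaglandin genes with enough fragments (Ptgs2, Hpgd and Slco2a1) had an unadjusted p under 0.05 and none was called.

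Among the genes tested, the profiles of Prkra and Sh2d4a over the 6 samples lay nearest to that of Ptgs2, at root mean square distances of 0.0245 and 0.0266 between log2(FPKM + 1) values centred on their mean. Both are far more abundant than Ptgs2. Prkra was at 14.6 to 15.3 FPKM in Zfp90fl/fl and 12.1 to 12.9 FPKM in Zfp90ΔIEC mice, and Sh2d4a averaged 44.4 and 37.3 FPKM. The measure is thus of equal differences on this scale and not of equal ratios of FPKM.

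The start of Ptgs2 is shown because its promoter is the best known of the family and because several of the motifs searched lie in it. Sequences are from RefSeq (GRCm38.p6), in windows of 250 bases before to 50 after each start, of which 11 belong to the 10 genes and 32851 to all genes. The motifs searched on both strands were TGACG, the core of the cyclic AMP response element, and CACGTG, an E-box. A palindrome bound by the C/EBP factors was searched as TTGCGCAA, the TATA box as TATAAA, and the GC box as GGGCGG. In the lines that follow, capitals mark the motif. The upper line covers chr1:150100034-150100063 on the + strand, where the response element core, read on the other strand, overlaps the E-box, and the lower line covers chr1:150099952-150099981 on the + strand.
Ptgs2 response element core and E-box: gtcaccactaCGTCACGTGgagtccgcttt
Ptgs2 C/EBP palindrome: gctgcggttcTTGCGCAActcactgaagca
The response element core begins 13 bases after the RefSeq start, the E-box 16 bases after it, and the palindrome 69 bases before it (offset -69). Whether transcription in these samples begins at that start was not examined. The core was present in 20.8% of all windows, the E-box in 7.15% and the palindrome in 0.183%. Among the windows of the 10 genes, the core was also in that of Ptges3, the E-box in those of Ptges2 and Abcc4, and the palindrome only in that of Ptgs2. A match describes the letters and says nothing about binding.

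Cyclooxygenase 1, encoded by Ptgs1 (ENSMUSG00000047250; chr2:36230426-36252272, + strand), is the enzyme that many cells hold at a steady level. Its values were 0.141, 0.0796 and 0.111 FPKM in Zfp90fl/fl and 0.0532, 0.0359 and 0.0737 FPKM in Zfp90ΔIEC replicates 1 to 3. The genotypes did not overlap, by a gap of 0.0737 to 0.0796 FPKM. The mean was 0.111 ± 0.0309 FPKM (SD, n = 3) against 0.0543 ± 0.0189 FPKM (SD, n = 3), with a log2 fold change of -0.07 (SE 0.0263) and an adjusted p of 0.425 by limma without the filter. Only an estimated 26.1 fragments in all 3 Zfp90fl/fl samples and 13.1 in all 3 Zfp90ΔIEC samples stand behind this difference.

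Markers of white blood cells lay lower in the same Zfp90ΔIEC samples. Both cyclooxygenases are also expressed by cells of the lamina propria, and in bulk RNA fewer cells of a type and less RNA per cell cannot be told apart. Of 8 neutrophil markers, 5 were lower in every Zfp90ΔIEC sample and 4 (S100a8, S100a9, Cxcr2 and Retnlg) were at 0 in all 3. Retnlg was also at 0 in Zfp90fl/fl replicates 2 and 3. In the Zfp90fl/fl samples, S100a8 rested on an estimated 3.1 to 6.6 fragments, S100a9 on 7 to 23.8 and Cxcr2 on 1 to 11. The neutrophil sum overlapped, at 25.3 to 47.2 FPKM in Zfp90fl/fl and 21.9 to 33.0 FPKM in Zfp90ΔIEC mice, and most of it was Ly6g. Without Ly6g it was 1.36 to 2.52 FPKM in Zfp90fl/fl and 0 to 0.0452 FPKM in Zfp90ΔIEC mice.

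Of 8 macrophage markers, 5 were lower without overlap, with sums of 32.0 to 37.2 FPKM against 17.4 to 19.6 FPKM, and the defining gene Adgre1 was at or under 0.186 FPKM in all samples. Cd14, which makes up most of that sum, passed the threshold (log2 fold change -0.84, SE 0.0807, adjusted p = 0.0219, limma). It was also called by limma-voom (adjusted p = 0.0158), but no macrophage marker was called by limma without the filter. Without Cd14 the macrophage sum was 7.10 to 9.88 FPKM in Zfp90fl/fl and 3.16 to 4.54 FPKM in Zfp90ΔIEC mice. Of 8 mast cell markers, 3 were lower without overlap, among them Mcpt1 and Mcpt2, the proteases of mucosal mast cells, which both passed the threshold (adjusted p = 0.00271, limma). Without Kit, which overlapped, the mast cell sum was 13.6 to 21.1 FPKM in Zfp90fl/fl and 1.41 to 2.30 FPKM in Zfp90ΔIEC mice.

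Of 8 lymphocyte markers, 3 were lower without overlap (sums of 1.73 to 2.83 against 0.870 to 1.43 FPKM). The 8 tuft cell markers are of an epithelial cell type that is itself a source of prostaglandins. They summed to 2.76 FPKM on average in Zfp90fl/fl and 1.67 FPKM in Zfp90ΔIEC mice, without overlap of the sums. The gap was narrow, with Zfp90ΔIEC replicate 3 at 2.52 FPKM and the lowest Zfp90fl/fl sample at 2.57 FPKM. Zfp90ΔIEC replicates 1 and 2 lay further below. Of the 8 markers, 5 were lower without overlap, and Gfi1b was at 0 in all 3 Zfp90ΔIEC samples. None of the 8 passed the filter. Fibroblast markers summed to 0.334 to 0.534 FPKM against 0.271 to 0.823 FPKM and overlapped. The part of these cells in the Ptgs1 and Ptgs2 values was not tested.

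**Figure D2:**
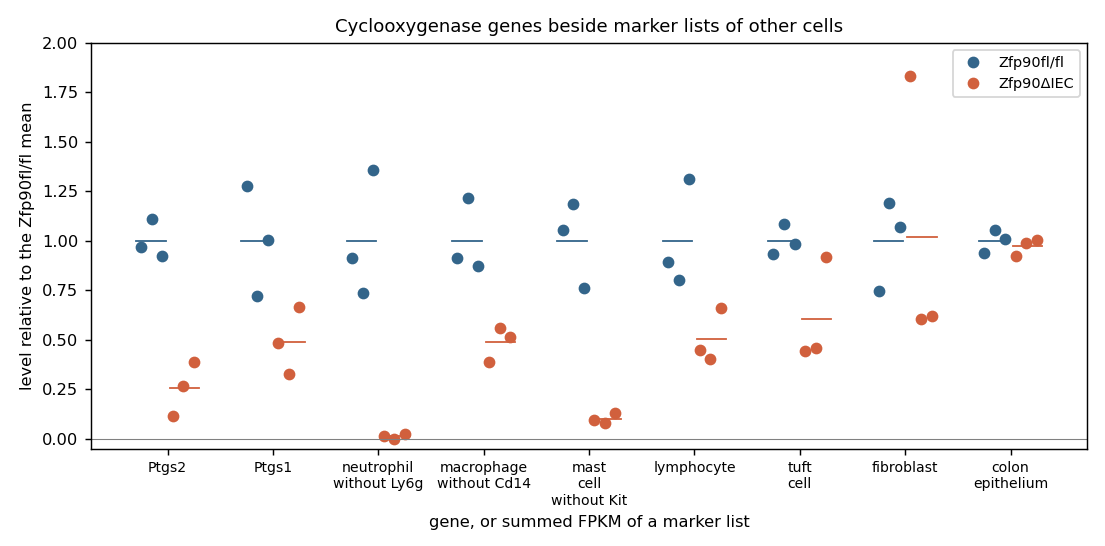
Ptgs2, Ptgs1 and the summed FPKM of marker lists in each sample, divided by the mean of the 3 Zfp90fl/fl samples, with points for samples and bars for group means. The 3 Zfp90ΔIEC samples lie below the 3 Zfp90fl/fl samples for both cyclooxygenases and for the neutrophil (without Ly6g), macrophage (without Cd14), mast cell (without Kit), lymphocyte and tuft cell lists, while the ranges of the genotypes overlap for the fibroblast and colon epithelium lists.

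Prostaglandin E synthases showed no such gap. Ptges (ENSMUSG00000050737; chr2:30889471-30929863, - strand) encodes the inducible microsomal synthase that is often coupled to cyclooxygenase 2. It was measured at 0.348, 0.201 and 0.187 FPKM in Zfp90fl/fl and at 0.315, 0.316 and 0.293 FPKM in Zfp90ΔIEC replicates 1 to 3. Replicate 1 of Zfp90fl/fl was the highest of all 6 samples and the other 2 of that genotype were the lowest. The mean was 0.245 ± 0.0893 FPKM (SD, n = 3) against 0.308 ± 0.0132 FPKM (SD, n = 3), and the difference of 0.07 (SE 0.0561, 95% interval -0.07 to 0.21, log2) had an adjusted p of 0.751 by limma without the filter.

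Ptges2 (ENSMUSG00000026820; chr2:32395896-32405772, + strand) encodes a microsomal synthase that is made without induction. Its values were 5.11, 5.31 and 5.63 FPKM in Zfp90fl/fl and 4.77, 5.66 and 5.18 FPKM in Zfp90ΔIEC mice, so that Zfp90ΔIEC samples were both the lowest and the highest. The difference was -0.04 (SE 0.0733, 95% interval -0.21 to 0.14, log2, adjusted p = 0.860, limma).

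Ptges3 (ENSMUSG00000071072; chr10:128058954-128077272, + strand) encodes the cytosolic synthase, a protein also known as p23, a partner of the chaperone Hsp90. It was measured at 42.0, 40.1 and 42.8 FPKM in Zfp90fl/fl and at 49.0, 45.5 and 40.6 FPKM in Zfp90ΔIEC mice. The genotypes overlapped through Zfp90ΔIEC replicate 3, and the difference was 0.11 (SE 0.0775, 95% interval -0.07 to 0.29, log2, adjusted p = 0.570, limma). A processed pseudogene, Ptges3-ps, was listed at up to 24.9 FPKM in the same samples, so that the share of reads assigned to Ptges3 itself is uncertain.

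Degradation is represented by Hpgd (ENSMUSG00000031613; chr8:56294585-56321043, + strand), which encodes hydroxyprostaglandin dehydrogenase, the enzyme of the initial step in the breakdown of prostaglandin E2 and an abundant enzyme of the differentiated colon epithelium. It was measured at 94.9, 98.8 and 98.6 FPKM in Zfp90fl/fl and at 114, 103 and 122 FPKM in Zfp90ΔIEC replicates 1 to 3. Every Zfp90ΔIEC sample was above every Zfp90fl/fl sample, by the least in replicate 2. The mean of 113 ± 9.70 FPKM (SD, n = 3) was 16.0% above that of 97.5 ± 2.22 FPKM (SD, n = 3) in Zfp90fl/fl mice. The log2 fold change was 0.21 (SE 0.0728, 95% interval 0.04 to 0.38), with an unadjusted p of 0.0244 and an adjusted p of 0.267 by limma.

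Depth does not limit Hpgd, which had an estimated 4169 to 5808 fragments per sample. Of the genes tested, Ppp1r2-ps2, Knl1 and Krt18 had the profiles nearest to Hpgd (root mean square distances of 0.0307, 0.0456 and 0.0491). Krt18, a keratin of simple epithelia, was at 302 FPKM in Zfp90fl/fl and 348 FPKM in Zfp90ΔIEC mice, and Knl1, a kinetochore gene, at 1.41 and 1.97 FPKM. Of 8 surface colonocyte markers, 5 (Car1, Aqp8, Slc26a3, Slc26a2 and Guca2a) were also higher without overlap between genotypes. Car4, Krt20 and Ceacam1 overlapped, and Ceacam1 had a log2 fold change of -0.03. The list summed to 5879 to 7747 FPKM against 8561 to 12777 FPKM, most of it Car1, and none of the 8 was called. Of the 8 crypt base markers, Mki67 and Top2a, genes of dividing cells, were higher without overlap. Mki67 passed the threshold narrowly (0.41, SE 0.0512, log2, adjusted p = 0.0478, limma). It was also called by limma-voom (adjusted p = 0.0335), but no crypt base marker was called by limma without the filter. The list summed to 61.8 to 67.9 FPKM against 75.1 to 75.9 FPKM. The other 6 crypt base markers, such as Lgr5, Axin2 and Smoc2, each overlapped and summed to 25.6 to 30.1 FPKM against 24.9 to 28.9 FPKM. The part of cell makeup in the Hpgd value was not tested.

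Any link between the motifs and the levels of the genes was not tested. The windows of Hpgd and Slco2a1 were those among the 10 genes with a TATA box, found in 13.6% of all windows. They are shown as the stretch around that box on the + strand at chr8:56294544-56294573 and chr9:103008446-103008475.
Hpgd TATA box: cacggagtgggcTATAAAagctgctgcggc
Slco2a1 TATA box: atcgctgccactTATAAAaacttctgggcg
The box of Slco2a1 begins 29 bases before its RefSeq start (offset -29). That of Hpgd begins 4 bases after its RefSeq start and lies before the start of the gene in the GENCODE annotation. The GC box was in the windows of 7 of the 10 genes and in 35.7% of all windows.

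Slco2a1 (ENSMUSG00000032548; chr9:102988712-103096002, + strand) encodes the prostaglandin transporter, which takes prostaglandin E2 up from outside the cell, where Hpgd can then break it down. It was measured at 2.27, 2.00 and 2.32 FPKM in Zfp90fl/fl and at 2.41, 3.17 and 3.51 FPKM in Zfp90ΔIEC replicates 1 to 3. Replicate 1 of Zfp90ΔIEC was close to the Zfp90fl/fl range, and the others stood clear of it. The mean was 2.20 ± 0.170 FPKM (SD, n = 3) against 3.03 ± 0.565 FPKM (SD, n = 3), 1.38-fold higher in Zfp90ΔIEC mice. The log2 fold change was 0.33 (SE 0.113, 95% interval 0.06 to 0.59), with an unadjusted p of 0.0239 and an adjusted p of 0.265 by limma.

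Endothelium is another site of Slco2a1 expression. The 6 endothelial markers summed to 0.380 to 0.521 FPKM in Zfp90fl/fl and 0.595 to 0.629 FPKM in Zfp90ΔIEC mice, where Pecam1 was higher and Vwf lower without overlap. The defining markers Cdh5, Kdr and Tek were at or under 0.0197 FPKM in all 6 samples. Smooth muscle markers summed to 0.532 to 1.08 FPKM against 1.07 to 1.29 FPKM and overlapped. The part of either cell type in the Slco2a1 value was not tested.

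Abcc4 (ENSMUSG00000032849; chr14:118482692-118706219, - strand) encodes a pump that exports prostaglandin E2 among other anions. Its values were 2.91, 2.38 and 2.44 FPKM in Zfp90fl/fl and 2.70, 2.14 and 2.52 FPKM in Zfp90ΔIEC mice, which overlapped. The difference was -0.05 (SE 0.0934, 95% interval -0.27 to 0.17, log2, adjusted p = 0.841, limma). The log2 ratio of Slco2a1 to Abcc4, uptake over export, was -0.36, -0.25 and -0.07 in Zfp90fl/fl and -0.17, 0.57 and 0.48 in Zfp90ΔIEC replicates 1 to 3. Thus it overlapped between genotypes through Zfp90ΔIEC replicate 1.

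The receptors of prostaglandin E2 on the list are Ptger2 and Ptger4, which encode EP2 and EP4, both of which raise cyclic AMP. Ptger4 (ENSMUSG00000039942; chr15:5206661-5244187, - strand) was measured at 9.36, 9.97 and 10.5 FPKM in Zfp90fl/fl and at 9.93, 9.36 and 9.16 FPKM in Zfp90ΔIEC mice. The genotypes overlapped, with a difference of -0.06 (SE 0.0643, 95% interval -0.21 to 0.09, log2, adjusted p = 0.702, limma). Ptger4 shares exon bases with Ttc33 on the other strand, which was listed at 4.72 to 7.86 FPKM, and whether strand was used in counting is not given in the sources used here.

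Ptger2 (ENSMUSG00000037759; chr14:44988195-45003820, + strand) was listed at 0.0422, 0.0242 and 0.00963 FPKM in Zfp90fl/fl and at 0, 0.0379 and 0.00973 FPKM in Zfp90ΔIEC mice. That is an estimated 0 to 4.1 fragments per sample, at which no difference between genotypes could be detected (adjusted p = 0.829, limma without the filter). Ptger4 made up 99.6% to 100% of the summed FPKM of both receptors.

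**Figure D3:**
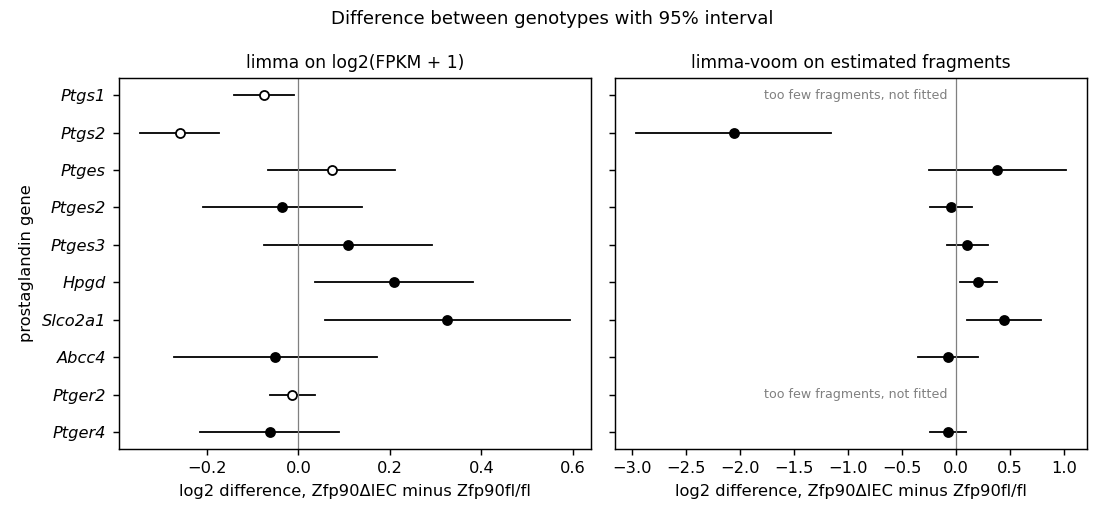
Log2 difference, Zfp90ΔIEC minus Zfp90fl/fl, of each of the 10 genes with its 95% interval, from limma on log2(FPKM + 1) (left, open circles for the 4 genes below 1 FPKM) and from limma-voom on estimated fragments (right), each panel on its own scale. Ptgs2 lies at -0.26 on the left and -2.06 on the right, Hpgd at 0.21 in both panels, and the intervals of Ptges, Ptges2, Ptges3, Abcc4 and Ptger4 include 0 in both.

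Synthesis was set against degradation within each sample, as a description without a test. The log2 ratio of Ptgs2 to Hpgd was -8.43, -8.30 and -8.55 in Zfp90fl/fl and -11.80, -10.40 and -10.12 in Zfp90ΔIEC replicates 1 to 3. Hpgd thus exceeded Ptgs2 by 314-fold to 376-fold in Zfp90fl/fl and by 1116-fold to 3576-fold in Zfp90ΔIEC mice. The mean log2 ratio differed by -2.35 without overlap, most of which is the difference of Ptgs2. Without Zfp90ΔIEC replicate 1, which has an estimated 3.9 Ptgs2 fragments, it was -1.83.

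The sum of the 5 synthesis genes did not separate the genotypes. Its ratio to Hpgd was -0.99, -1.10 and -1.01 in Zfp90fl/fl and -1.08, -0.99 and -1.40 in Zfp90ΔIEC mice on the log2 scale, a difference of -0.12 with overlap. Ptges3 made up 87.2% to 90.5% of that sum, while the cyclooxygenases made up 0.763% to 0.869% in Zfp90fl/fl and 0.157% to 0.395% in Zfp90ΔIEC mice. Without Ptges3 the difference was -0.30, and the genotypes did not overlap (-4.02, -4.07 and -3.99 against -4.47, -4.08 and -4.43). The gap was narrow, and Ptges2, which makes up most of the remaining sum, itself overlapped between genotypes. Without Zfp90ΔIEC replicate 3 the difference of the 5-gene ratio was -0.0017.

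**Figure D4:**
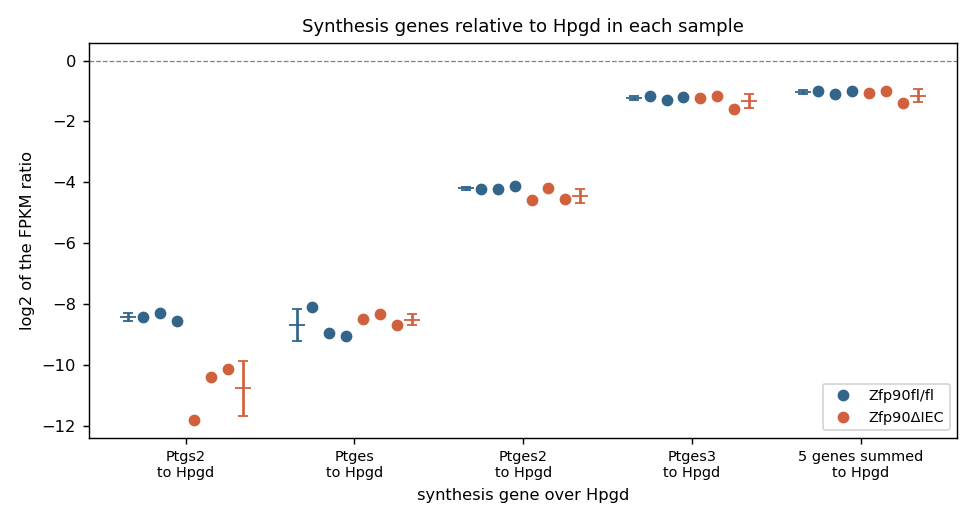
Log2 of the FPKM of Ptgs2, Ptges, Ptges2, Ptges3 and all 5 synthesis genes summed (Ptgs1 included), over Hpgd, in each of the 3 Zfp90fl/fl and 3 Zfp90ΔIEC samples, with the mean and SD beside the points. The genotypes are apart for Ptgs2 (-8.55 to -8.30 against -11.80 to -10.12) and overlap for the other ratios.

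The rest of the pathway was read from 8 lists of 85 genes. Of these, 7 were at 0 in all samples and 52 were tested, and none passed the threshold. At an unadjusted p under 0.05, 1 gene was higher and 3 were lower in Zfp90ΔIEC mice among the 52, against 14.6% of all genes tested. Without the filter, 2 were higher and 8 lower among 78 genes, against 9.96% of all genes, and none was called. By limma-voom 10 of 65 had such a p, against 14.7% of all genes, and none was called. None of these counts sets the pathway apart from all genes. The median log2 fold change of the 52 genes was -0.04.

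Arachidonic acid is released from membranes by phospholipases, and 12 of the 16 listed genes were tested. Pla2g2a, a secreted phospholipase of Paneth and other epithelial cells, was measured at 3.56, 3.70 and 4.55 FPKM in Zfp90fl/fl and at 1.92, 1.82 and 2.29 FPKM in Zfp90ΔIEC mice. The groups were far apart relative to their spread, with a log2 fold change of -0.71 (SE 0.101) and an adjusted p of 0.0632 by limma, short of the threshold. C57BL/6 mice are known to carry a disrupted Pla2g2a, and the value is of its mRNA. Pla2g12a was higher without overlap, at 1.14 to 1.20 FPKM in Zfp90fl/fl and 1.74 to 1.88 FPKM in Zfp90ΔIEC mice (0.36, SE 0.0662, log2, adjusted p = 0.0879, limma).

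Cytosolic phospholipase A2, encoded by Pla2g4a and the main supplier of arachidonic acid to cyclooxygenases, was at 9.92 ± 0.558 FPKM in Zfp90fl/fl and 9.85 ± 0.558 FPKM in Zfp90ΔIEC mice (SD, n = 3). Pla2g10, the most abundant of the list, was at 28.4 ± 1.35 and 26.5 ± 3.99 FPKM. Pla2g2f (9.01 and 8.28 FPKM), Pla2g5 (6.29 and 4.49 FPKM), Pla2g4f (5.66 and 5.31 FPKM) and Mgll (7.84 and 8.19 FPKM), which frees arachidonic acid from monoacylglycerol, did not pass the threshold.

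Of 10 other prostanoid synthases, 6 were tested. Akr1c18, an aldo-keto reductase that acts on progesterone and prostaglandins, was measured at 4.42, 6.06 and 5.68 FPKM in Zfp90fl/fl and at 1.78, 2.67 and 1.85 FPKM in Zfp90ΔIEC mice. Its mean was 2.57-fold lower, with a log2 fold change of -1.05 (SE 0.142) and an adjusted p of 0.0593 by limma, the nearest to the threshold among the 85 genes. Cbr1, a carbonyl reductase that turns prostaglandin E2 into prostaglandin F2α, was at 160 ± 0.820 and 168 ± 13.9 FPKM (SD, n = 3). Cbr3 (27.6 and 26.8 FPKM), Cbr2 (14.5 and 13.1 FPKM), Fam213b (8.89 and 8.77 FPKM) and Akr1b3 (8.07 and 8.15 FPKM) overlapped between genotypes. Of the thromboxane, prostacyclin and prostaglandin D synthases, Ptgds was at 0 in every sample, and Tbxas1, Ptgis and Hpgds were at or under 0.684 FPKM.

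The steps after Hpgd are catalysed by prostaglandin reductases. Ptgr1 was at 9.14 and 9.58 FPKM, Ptgr2 at 10.8 and 11.2 FPKM and Zadh2 at 23.4 and 22.4 FPKM in Zfp90fl/fl and Zfp90ΔIEC mice. All 3 overlapped between genotypes.

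Of 8 other receptor genes, 1 was tested, Ptgfrn, a regulator of the prostaglandin F receptor (10.9 and 10.3 FPKM). Ptgir and Ptgdr were at 0 in every sample, and Ptger1, Ptger3, Ptgfr, Ptgdr2 and Tbxa2r were under 1 FPKM. Ptgfr, the prostaglandin F receptor, was listed at 0.0115, 0.0236 and 0 FPKM in Zfp90fl/fl and at 0.151, 0.0798 and 0.0316 FPKM in Zfp90ΔIEC mice (unadjusted p = 0.0461, adjusted p = 0.490, limma without the filter). Of 7 other carriers, 2 were tested and none had an unadjusted p under 0.05.

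In the lipoxygenase branch, which competes for arachidonic acid, Alox5 and its activating protein Alox5ap were below the filter. Alox5ap was measured at 0.231, 0.325 and 0.298 FPKM in Zfp90fl/fl mice and at or under 0.127 FPKM in Zfp90ΔIEC mice (adjusted p = 0.192, limma without the filter). Alox5 averaged 0.116 and 0.0256 FPKM (adjusted p = 0.324, limma without the filter). Both are genes of myeloid cells, and Alox5ap is also on the tuft cell list, so that these values lie beside the marker sums given above. Lta4h, the leukotriene A4 hydrolase (20.7 and 20.1 FPKM), and Gpx4, a lipid peroxidase (39.8 and 43.2 FPKM), overlapped between genotypes.

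Genes of signalling from the prostaglandin E2 receptors numbered 17, of which 14 were tested with no unadjusted p under 0.05. The stimulatory G protein Gnas was at 28.4 and 27.7 FPKM, the inhibitory Gnai2 at 31.1 and 30.5 FPKM, and the adenylyl cyclase Adcy6 at 54.7 and 54.1 FPKM in Zfp90fl/fl and Zfp90ΔIEC mice. The protein kinase A subunits Prkaca (21.9 and 22.8 FPKM), Prkacb (11.0 and 8.98 FPKM), Prkar1a (23.9 and 23.2 FPKM) and Prkar2a (30.1 and 31.7 FPKM) and the factor Atf1 (10.9 and 12.2 FPKM) overlapped. Below the filter, Pde4b, a phosphodiesterase that breaks down cyclic AMP, averaged 0.552 and 0.206 FPKM (unadjusted p = 0.00114, adjusted p = 0.167, limma without the filter), and Adcy7, a cyclase of blood cells, 0.301 and 0.122 FPKM (unadjusted p = 0.00162, adjusted p = 0.179, limma without the filter). Both did not overlap between genotypes.

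Regulators of Ptgs2 numbered 14, of which 12 were tested. Cebpd, one of the C/EBP factors, was measured at 3.55, 3.51 and 3.75 FPKM in Zfp90fl/fl and at 2.67, 2.89 and 3.18 FPKM in Zfp90ΔIEC mice (-0.24, SE 0.0705, log2, unadjusted p = 0.0123, adjusted p = 0.206, limma). Zfp36, which binds the Ptgs2 mRNA and shortens its life, was at 225 ± 22.4 and 201 ± 16.5 FPKM, and Elavl1, which prolongs it, at 5.83 ± 0.230 and 5.60 ± 0.236 FPKM (SD, n = 3). The immediate early genes Fos (770 and 788 FPKM), Jun (429 and 444 FPKM) and Egr1 (214 and 213 FPKM) were abundant in both genotypes. The NF-κB subunits Nfkb1 (6.62 and 6.49 FPKM) and Rela (17.1 to 22.6 FPKM over all samples) and the factors Zfp36l1 (32.7 and 35.2 FPKM) and Hif1a (20.2 and 18.1 FPKM) did not pass the threshold. Jun was higher and Hif1a lower in every Zfp90ΔIEC sample, the latter with an unadjusted p of 0.0601 by limma, and of 0.0482 without the filter.

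**Figure D5:**
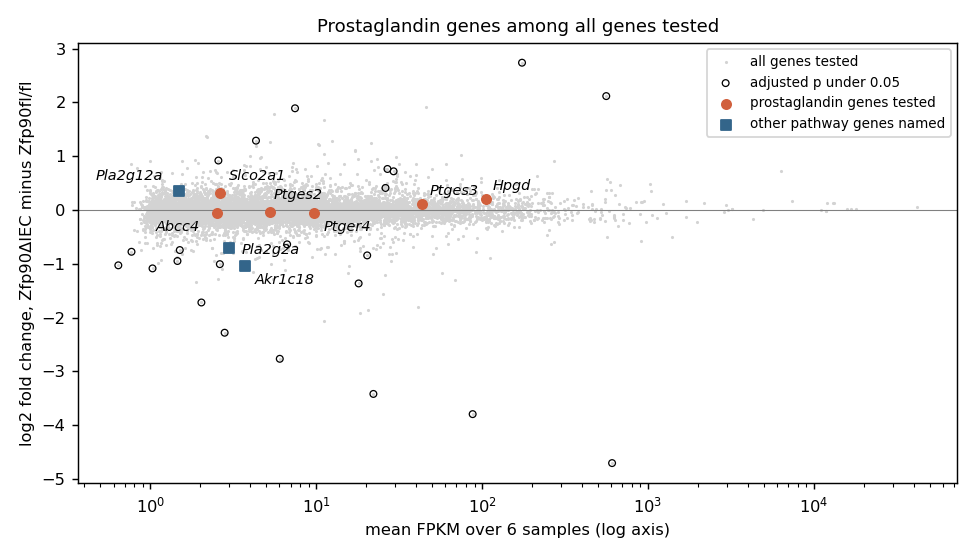
Log2 fold change on the log2(FPKM + 1) scale against mean FPKM over the 6 samples (log axis) for all 11564 genes tested (grey), with the 23 genes called as open circles, the 6 prostaglandin genes tested as orange circles and 3 other pathway genes as blue squares. The orange points lie between -0.06 and 0.33 and none is circled, and Akr1c18, at -1.05, is the lowest of the named points.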

How the data were processed

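Colonic epithelium of 6 mice was isolated with EDTA and DTT, and RNA was sequenced as 150-bp read pairs. The authors deposited 1 table per sample with a value per mouse Ensembl gene, taken here as FPKM from the methods and the values, since the tables do not name the unit. The sources conflict on the pipeline: the methods name TopHat, Cuffdiff and a human genome, while the submitters' processing notes name STAR 2.5, Cuffnorm, DESeq 1.22.1 and mm9. Of 52550 genes, 52403 had a symbol (GENCODE M21). Coordinates are of GRCm38, not of the authors' alignment.

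Values were transformed to log2(FPKM + 1), a pseudocount of 1. A gene was kept at 1 FPKM or more in 3 samples or more (11564 genes), and limma 3.58.1 was run in R 4.3.3 (two-sided, intensity trend, no replicate block, Benjamini-Hochberg adjustment, threshold 0.05). Genes below that level were read from the same fit over 27805 genes above 0 in at least 1 sample. Samples were grouped by title, with 3 per genotype. They were taken as separate mice, which the labels do not state, and p-values measure the spread between these samples.

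Depth is not given by the tables. It was estimated from the steps of 1 fragment among low values of genes with a single transcript, of which 57.6% to 61.8% lay within 0.1 of a whole step. Fragments per gene are therefore estimates from the longest transcript, and intervals cover the spread between samples only. Limma-voom on these (at least 10 in at least 3 samples) was added after the values were seen. The script was tested on simulated data.

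Genes named are the 10 members, pathway genes with a mean of at least 5 FPKM or an unadjusted p under 0.05, marker lists by sum and count (sums without Ly6g, Cd14, Kit, or Mki67 and Top2a were added after values were seen), and the 3 genes nearest to Hpgd and to Ptgs2, of which 1 is not reported here. The members and lists were chosen with earlier results of these data known. Alternatives were pseudocounts of 0.1 and 0.5, no filter, a filter at 0.1 FPKM, quantile and median ratio scaling, the replicate block, no trend, and each sample left out. Plots were drawn in matplotlib 3.10.9 under Python 3.11.15, from tables handled by numpy 2.4.6 and pandas 2.3.3. Proteins and the microbiota were not analysed here.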

Additional observations from a re-analysis of the deposited data

How the results depend on the processing

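None of the 10 prostaglandin genes was called under any alternative run. Over all genes tested, 23 were called, 13 with a pseudocount of 0.1, 15 without the filter, 49 by limma-voom on estimated fragments, and 10 to 21 with 1 sample left out (10 without Zfp90fl/fl replicate 2). The adjusted p of Ptgs2 ranged from 0.0733 to 0.339 over 14 alternatives, that of Hpgd from 0.211 to 0.489 and that of Slco2a1 from 0.110 to 0.507 over 15 each (limma), and all 3 kept their direction. With 1 sample left out, the log2 fold change of Ptges2 ranged from -0.088 to 0.016, above 0 without Zfp90ΔIEC replicate 1, and that of Abcc4 from -0.10 to 0.017, above 0 without Zfp90fl/fl replicate 1 and without Zfp90ΔIEC replicate 2. The difference in the log2 ratio of Ptgs2 to Hpgd shrank to -0.47 with 1 FPKM added to both sides, which by construction pulls Ptgs2 toward the added value, and that of the 5 synthesis genes was -0.30 without Ptges3.

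The replicate numbers are shared by both genotypes. Deviations from the group means correlated at 0.19, 0.11 and 0.08 for samples with the same number. Samples with different numbers correlated at -0.13 to 0.014, below all 3 of these values. Deviations sum to 0 within a group, so positive values for the same number by construction lower those for different numbers. This contrast is thus not separate evidence on pairing. Not every pair with the same number passed 0.1, and the main fit does not pair the mice. These few values do not settle whether the mice are paired, so the fit with pairs is given beside it. With the number as a block, 47 genes were called, with 0 of the 10 prostaglandin genes and 2 of the other pathway genes, Akr1c18 (adjusted p = 0.0403) and Pla2g2a (adjusted p = 0.0414, limma). Nothing in the labels says whether samples with the same number share a litter or a day. Depth limits Ptgs1, Ptgs2, Ptges and Ptger2, which have an estimated 39.9 fragments or fewer per sample.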

Other observations

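Some pathway genes differed widely between samples of the same genotype, and they are named here because of those values. Mgll was measured at 2.52, 11.3 and 9.71 FPKM in Zfp90fl/fl and at 10.5, 11.5 and 2.51 FPKM in Zfp90ΔIEC replicates 1 to 3, so that 1 sample of each genotype lay at less than 3 FPKM and the other 4 at more than 9 FPKM. Arrb1, an arrestin that binds active receptors, was at 1.75, 1.44 and 6.50 FPKM in Zfp90fl/fl and at 1.39, 6.58 and 1.49 FPKM in Zfp90ΔIEC mice. Pla2g4c, another cytosolic phospholipase, was at 4.80 FPKM in Zfp90ΔIEC replicate 3 and at 0.309 to 0.808 FPKM in the other 5 samples. Creb1, which encodes the factor that binds cyclic AMP response elements, was at 4.05, 0.773 and 2.77 FPKM in Zfp90fl/fl and at 1.59, 0.631 and 0.728 FPKM in Zfp90ΔIEC mice. Ptger1, the EP1 receptor, was at 0.0651 and 0.0512 FPKM in Zfp90fl/fl replicates 1 and 2 and at 0.355 to 0.551 FPKM in the other 4 samples. Different samples stood apart for different genes.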
